A study of Mus musculus with 2 samples.

Results

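Pf4, Cavin2, Treml1, Ppbp, Rab27b, Plek, Serpine2, F2rl2, Cd9 and Tubb1, genes of megakaryocytes and platelets, were read in single haematopoietic stem cells (HSCs) of mouse bone marrow. They are 10 of the 32285 genes counted, found by symbol in both count matrices. They were picked with these data in view: most had been seen to be higher in one library than in the other, and to sit together in cells that carry much Pf4. The differences below therefore describe the genes and lend no support to that choice. The series holds 2 droplet libraries, LT-HSC and ST-HSC, 1 per group, both from the bone marrow of wild-type (WT) C57Bl6 mice, aged 8 weeks according to the title of the series. The gate for LT-HSC, long-term HSCs, took lineage-negative, Sca-1-positive, Kit-positive (LSK) cells that were CD150-positive and lacked CD34, CD48 and Flk2, and the gate for ST-HSC, short-term HSCs, took LSK cells positive for CD150 and CD48 and without CD34. The number of mice pooled into each library was not given in the sources used here.

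Megakaryocytes are the large marrow cells that shed platelets, and they load alpha granules with chemokines, adhesive proteins and growth factors and dense granules with small molecules. The granule genes encode cargo (Pf4, Ppbp, Serpine2), the machinery that carries granules (Rab27b), receptors and tetraspanins at the granule or cell surface (Treml1, F2rl2, Cd9), a signalling protein (Plek), a coat protein of caveolae (Cavin2) and the platelet form of beta-tubulin (Tubb1). Some stem cells of the marrow are known to carry RNA of this programme.

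Of the deposited barcodes, 2722 of 2938 in LT-HSC and 6648 of 7586 in ST-HSC had at least 1000 genes and under 10% mitochondrial UMIs (unique molecular identifiers, 1 per captured RNA molecule). They held 64673871 UMIs in LT-HSC against 111783180 in ST-HSC, with medians of 17595 and 13402 per cell. The 2 libraries shared 8 barcodes. Among genes of the sorting gates, the RNA of Slamf1 and Cd34 went against the ST-HSC label. Slamf1, which encodes CD150, was at 26.5 CPM (UMIs scaled to one common total per library or class) in LT-HSC against 1.26 CPM in ST-HSC. Cd34 was at 29.2 CPM in LT-HSC against 242 CPM in ST-HSC. Cd48 went with the gates, at 35.3 CPM in LT-HSC against 74.7 CPM in ST-HSC. Flt3, which encodes Flk2, was low in LT-HSC as its gate states, at 5.50 CPM against 291 CPM in ST-HSC. The libraries are named below as they are labelled. A single library per group gives no spread between replicates, and no test was made: intervals are exact 95% intervals that cover counting error only.

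The 250 bases before the RefSeq start of 3 members are shown, from build GRCm38.p6, read 5′ to 3′ on the plus strand, on which all 3 genes lie. Pf4 and Ppbp are shown because they are neighbours with unlike levels, and F2rl2 because it alone of the 9 members searched held a GATA word. Rab27b was not searched. The 3 were chosen after the matches were seen. Capitals mark the words searched, on either strand: for GATA factors AGATAA and also TGATAA, for ETS factors AGGAAG and also CGGAAG, for RUNX factors TGTGGT, and for the TATA box TATAAA. The stretches are chr5:90772185-90772434 for Pf4, chr5:90768268-90768517 for Ppbp and chr13:95696670-95696919 for F2rl2.
Pf4: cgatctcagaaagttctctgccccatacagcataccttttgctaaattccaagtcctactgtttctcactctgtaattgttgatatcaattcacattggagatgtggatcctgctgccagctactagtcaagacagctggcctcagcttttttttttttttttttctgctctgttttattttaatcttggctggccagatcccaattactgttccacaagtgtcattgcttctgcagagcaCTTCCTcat
Ppbp: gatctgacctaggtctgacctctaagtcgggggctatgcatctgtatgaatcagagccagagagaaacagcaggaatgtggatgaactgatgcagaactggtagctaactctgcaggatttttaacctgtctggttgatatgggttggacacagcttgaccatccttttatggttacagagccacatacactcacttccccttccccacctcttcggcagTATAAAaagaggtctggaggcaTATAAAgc
F2rl2: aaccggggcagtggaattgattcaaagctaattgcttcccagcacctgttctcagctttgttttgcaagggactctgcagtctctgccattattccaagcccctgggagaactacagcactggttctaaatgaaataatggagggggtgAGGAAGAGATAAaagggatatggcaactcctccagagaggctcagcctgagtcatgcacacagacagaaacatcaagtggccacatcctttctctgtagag
Pf4 held 1 ETS word, on the minus strand, 9 to 4 bases before its start. Ppbp held 2 TATA words, 30 to 25 and 8 to 3 bases before its start. F2rl2 held an ETS word 101 to 96 bases before its start and a GATA word that follows it directly, 95 to 90 bases before the start. No words overlapped. Of the 9 members searched, 5 held an ETS word (Cd9, F2rl2, Pf4, Serpine2 and Tubb1), against 39.2% of all 32851 stretches of this length. Of the same 9, 1 held a GATA word (16.6% of all), 1 a TATA word (12.4%) and 0 a RUNX word (14.0%). A match describes the letters and is not a site shown to be bound.

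The genes lie on 8 chromosomes of the mouse build mm10 and are all annotated as protein coding in GENCODE, which gives the spans below. Pf4 (chromosome 5, 90772435 to 90773383) and Ppbp (chromosome 5, 90768518 to 90770063) are both on the plus strand, with 2371 bases between them. Cavin2 is on chromosome 1 (51289126 to 51302960), as is Serpine2 (79794197 to 79861180). Treml1 is on chromosome 17 (48359916 to 48367176), Rab27b on chromosome 18, Plek on chromosome 11 (16971206 to 17052381), F2rl2 on chromosome 13 (95696853 to 95702739), Cd9 on chromosome 6 (125460266 to 125494791) and Tubb1 on chromosome 2 (174450695 to 174457882).

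The chemokines differed in level. Pf4, platelet factor 4, had 44868 UMIs in LT-HSC against 1814 in ST-HSC, or 694 CPM (interval 687 to 700.2) and 16.2 CPM (15.5 to 17.0). That is 42.8-fold higher in LT-HSC (40.8 to 44.8). Ppbp, the precursor of platelet basic protein and of the chemokine CXCL7, had 86 UMIs in LT-HSC against 39 in ST-HSC, or 1.33 CPM and 0.349 CPM. Its ratio was 3.81 (2.58 to 5.72), and its mean CPM was under the minimum of 5 set for the comparison. The third cargo gene, Serpine2, encodes protease nexin-1, an inhibitor of thrombin. It was at 14.3 CPM in LT-HSC against 2.84 CPM in ST-HSC, 5.01-fold higher (4.41 to 5.71).

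**Figure D1:**
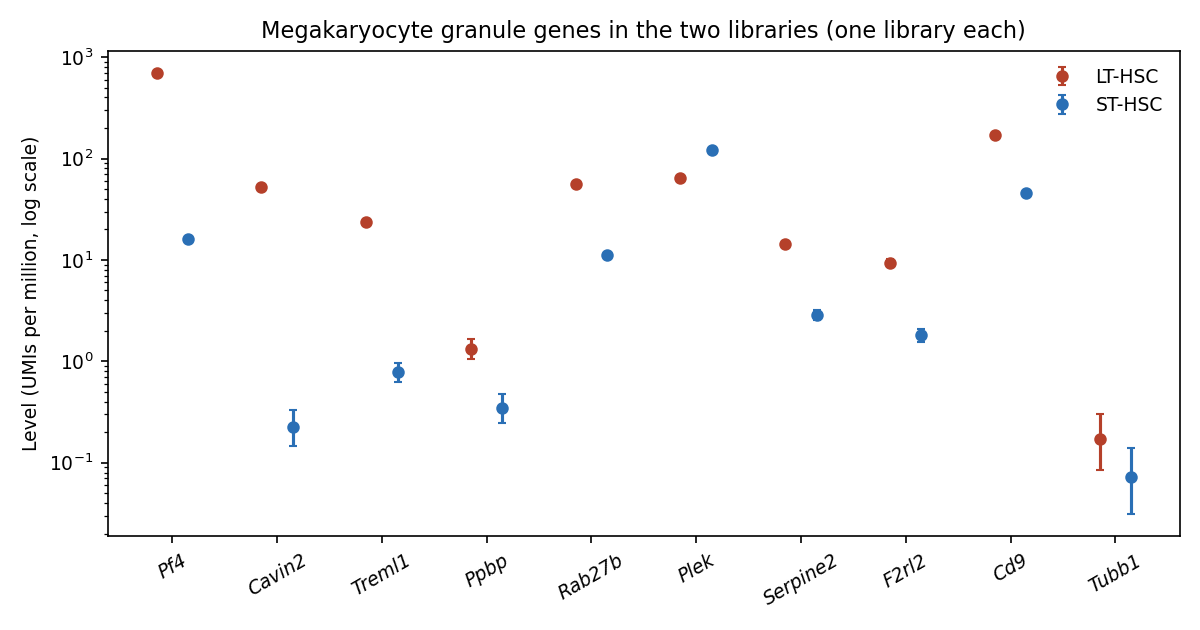
Level of each granule gene in the LT-HSC and the ST-HSC library, in CPM on a log axis; points are the 2 libraries and bars are exact 95% Poisson intervals (counting error only, 1 library each). Every gene but Plek lies higher in LT-HSC, and the intervals overlap for Tubb1.

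Among the structural, transport and surface genes, Cavin2 had the largest ratio. Cavin2, which shapes the coat of caveolae, had 3350 UMIs in LT-HSC against 25 in ST-HSC, or 51.8 CPM and 0.224 CPM, 232-fold higher in LT-HSC (157 to 358). Treml1, a receptor stored in platelet alpha granules, was at 23.9 CPM in LT-HSC against 0.778 CPM in ST-HSC, 30.7-fold higher (24.7 to 38.6). Rab27b, the small GTPase that docks platelet granules, was at 56.3 CPM in LT-HSC against 11.1 CPM in ST-HSC, 5.09-fold higher (4.77 to 5.43). F2rl2, the thrombin receptor PAR3, was at 9.42 CPM in LT-HSC against 1.80 CPM in ST-HSC, 5.24-fold higher (4.46 to 6.17). Cd9, a tetraspanin of the platelet surface, was the member seen in the highest number of LT-HSC cells and was at 172 CPM in LT-HSC against 46.2 CPM in ST-HSC, 3.73-fold higher (3.61 to 3.86). Tubb1, the beta-tubulin of the platelet's marginal band, was near the limit of detection, with 11 UMIs in LT-HSC against 8 in ST-HSC; its interval of 0.871 to 6.81 held 1.

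Plek went the other way. It encodes pleckstrin, the main substrate of protein kinase C in platelets, which other blood cells also carry, and it was at 64.2 CPM in LT-HSC against 120.0 CPM in ST-HSC, a ratio of 0.535 (0.516 to 0.554). Of the 8 members with a mean CPM of at least 5, 7 were at least 2-fold higher in LT-HSC, against 300 of 10412 genes, or 2.88% of all genes at that level, in that direction. Since this contrast helped to choose the genes, nothing is read from that count. The median log2 ratio was 2.37 over those 8 members and -0.12 over all 10412 genes. Of all genes at least 2-fold apart, 21.0% were higher in LT-HSC with this scaling and 31.6% with edgeR TMM factors, under which the median of all genes was 0.0096. Cavin2, Treml1, Serpine2 and F2rl2 pass the minimum only through LT-HSC, and 2 members, Ppbp and Tubb1, did not pass it. A sum over a library cannot tell fewer cells with a gene from less RNA of it per cell, so the values per cell follow.

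Pf4 RNA was concentrated in few cells. At least 1 Pf4 UMI was seen in 1128 of 2722 LT-HSC cells, 41.4%, and in 890 of 6648 ST-HSC cells, 13.4%. After every cell was cut down at random to 5000 UMIs (68 cells of LT-HSC and 281 of ST-HSC were too shallow), the shares were 25.8% (24.2 to 27.5) in LT-HSC against 6.75% (6.15 to 7.40) in ST-HSC. In LT-HSC, 462 cells held 1 Pf4 UMI, 191 held 50 or more, and the highest held 1212. There, 50% of all Pf4 UMIs lay in 47 cells, 1.73% of the library, and the 137 cells with the most Pf4 held 80.8%. In ST-HSC, 2 cells held 50 or more and the highest held 114.

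**Figure D2:**
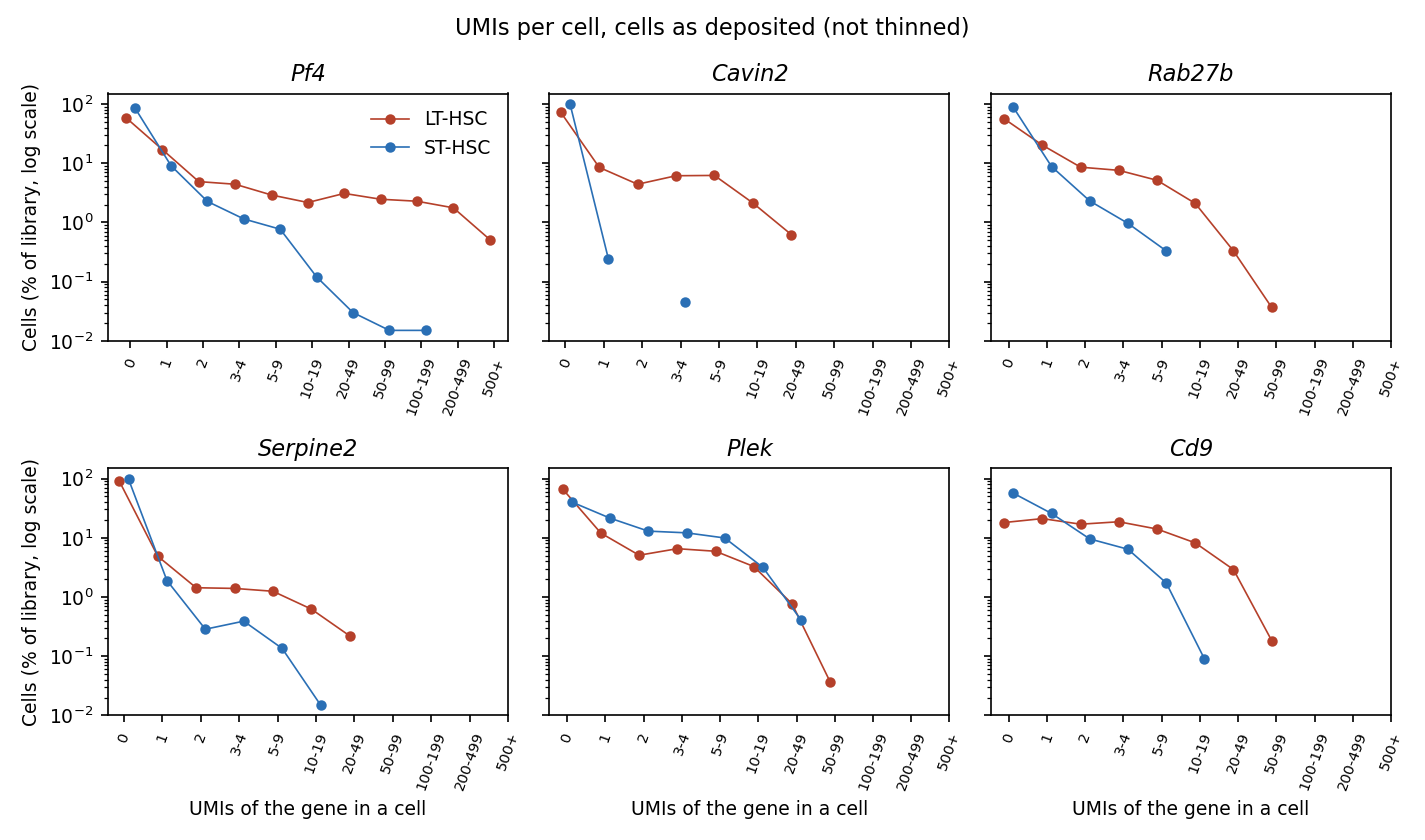
Share of cells (percent of the library, log axis) by the number of UMIs of 6 granule genes in the cell, for LT-HSC and ST-HSC cells that were not thinned; a missing point means that 0 cells fell in that bin. Pf4 in LT-HSC runs on to a highest value of 1212 UMIs, Cavin2 is nearly absent from ST-HSC, and Plek is the gene with more cells above 0 in ST-HSC.

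The other members were spread in different ways. Cavin2 was seen in 28.0% of LT-HSC cells, with up to 36 UMIs in a cell, and in 19 of 6648 ST-HSC cells, 0.286% (0.172 to 0.446), with at most 3. Serpine2 lay in fewer cells still than Pf4: 36 LT-HSC cells held 50% of its UMIs, and the 137 highest held 85.9%. Cd9 was spread more evenly, seen in 81.9% of LT-HSC and 43.5% of ST-HSC cells (50.8% and 20.5% after thinning), and its 137 highest LT-HSC cells held 30.5% of its UMIs. Rab27b was seen in 43.9% of LT-HSC and 12.4% of ST-HSC cells. Plek was seen in 33.6% of LT-HSC cells with up to 67 UMIs, and in 59.9% of ST-HSC cells with up to 46. Treml1 was seen in 23.2% of LT-HSC and 1.10% of ST-HSC cells, and F2rl2 in 11.6% of LT-HSC and 2.89% of ST-HSC cells. Ppbp never exceeded 4 UMIs in a cell of either library.

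Cells rich in Pf4 were set apart as those with at least 20 Pf4 UMIs per 10000 UMIs of the cell. There were 197 such Pf4-high cells in LT-HSC, 7.24% (6.29 to 8.28), with a median of 25639 UMIs, and 1 in ST-HSC. The lowest cell inside had 20.3 and the highest outside 19.9 Pf4 UMIs per 10000. The 197 cells held 88.0% of the library's Pf4 UMIs, 74.4% of its Serpine2, 56.2% of its F2rl2, 49.5% of its Cavin2, 47.7% of its Treml1, 46.3% of its Plek, 39.7% of its Rab27b and 32.8% of its Cd9. The single ST-HSC cell held 114 Pf4 UMIs among 27157, with 18 of Cd9, 8 of Plek, 5 each of Serpine2 and F2rl2, 4 of Rab27b, 2 of Treml1 and 1 each of Cavin2 and Ppbp. Without it, Pf4 in ST-HSC was at 15.2 CPM.

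Pf4-high LT-HSC cells also carried the RNA of megakaryocyte surface receptors. All 9 megakaryocyte or platelet markers had UMIs in them, summing to 648 CPM, against 202 CPM in the whole LT-HSC library and 81.3 CPM in the whole ST-HSC library. The stem cell markers Hlf and Procr were at 51.9 and 5.28 CPM in these cells, against 140 and 24.4 CPM in the LT-HSC library. Gp6, the collagen receptor of later megakaryocytes, was at 1.70 CPM in them. The 8 stem cell markers summed to 1082 CPM in Pf4-high cells and 1355.5 CPM in the library, and Meis1 among them was at 586 CPM and 399 CPM. Of markers of other cell types, Mpo, Ctsg, Dntt, Adgre1, Cd3e and Cdh5 had 0 UMIs in Pf4-high cells. In the whole library Mpo, Ctsg, Adgre1, Cd3e and Cdh5 had just 5, 6, 4, 5 and 6 UMIs, and Dntt 36. Nothing is read from their absence. Other genes of the macrophage and endothelial lists were present. C1qb was at 1.70 CPM in Pf4-high cells and 1.04 CPM in the library, and Pecam1 at 28.4 and 29.6 CPM. Of the neutrophil and monocyte list, Ms4a3 was at 22.6 CPM in Pf4-high cells and 6.08 CPM in the library. Prtn3 was at 79.3 CPM in Pf4-high cells and 168 CPM in the library. Nkg7, a granule protein gene of cytotoxic cells, was at 199.3 CPM in Pf4-high cells and 102.9 CPM in the library. The part of cells other than HSCs in these values was not tested. The 6 cell cycle markers summed to 919.7 CPM in Pf4-high cells and 801 CPM in the LT-HSC library.

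Most members also rose with Pf4 below that limit. When LT-HSC cells were grouped by their Pf4 level, Cavin2 was at 10.9 CPM in the 1594 cells with 0 Pf4 UMIs, and at 23.8, 75.7, 153, 227 and 327 CPM in the 5 groups of increasing Pf4. Serpine2 was at 2.14 CPM in the cells with 0 Pf4 UMIs and 160.0 CPM in the 101 cells with 50 or more per 10000. Cd9 was at 92.6 CPM and 729.6 CPM in the same end groups, and Plek at 16.8 and 373 CPM. In the 126 cells with 5 to under 20 Pf4 UMIs per 10000, still below the limit, the rise was smaller. Serpine2 was there at 20.8 CPM, Cd9 at 361 CPM and Plek at 188 CPM. Ppbp and Tubb1 had 7 and 1 UMIs in those cells, too few to follow. Hlf, a transcription factor of stem cells, did not follow: it was highest, at 226 CPM, in the 343 cells with 1 to under 5 Pf4 UMIs per 10000, and was at 141 CPM in the cells with 0 and at 32.5 CPM in the top group. Itga2b, the integrin alpha-IIb chain, was at 12.7 CPM in the lowest group and 201 CPM in the highest.

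**Figure D3:**
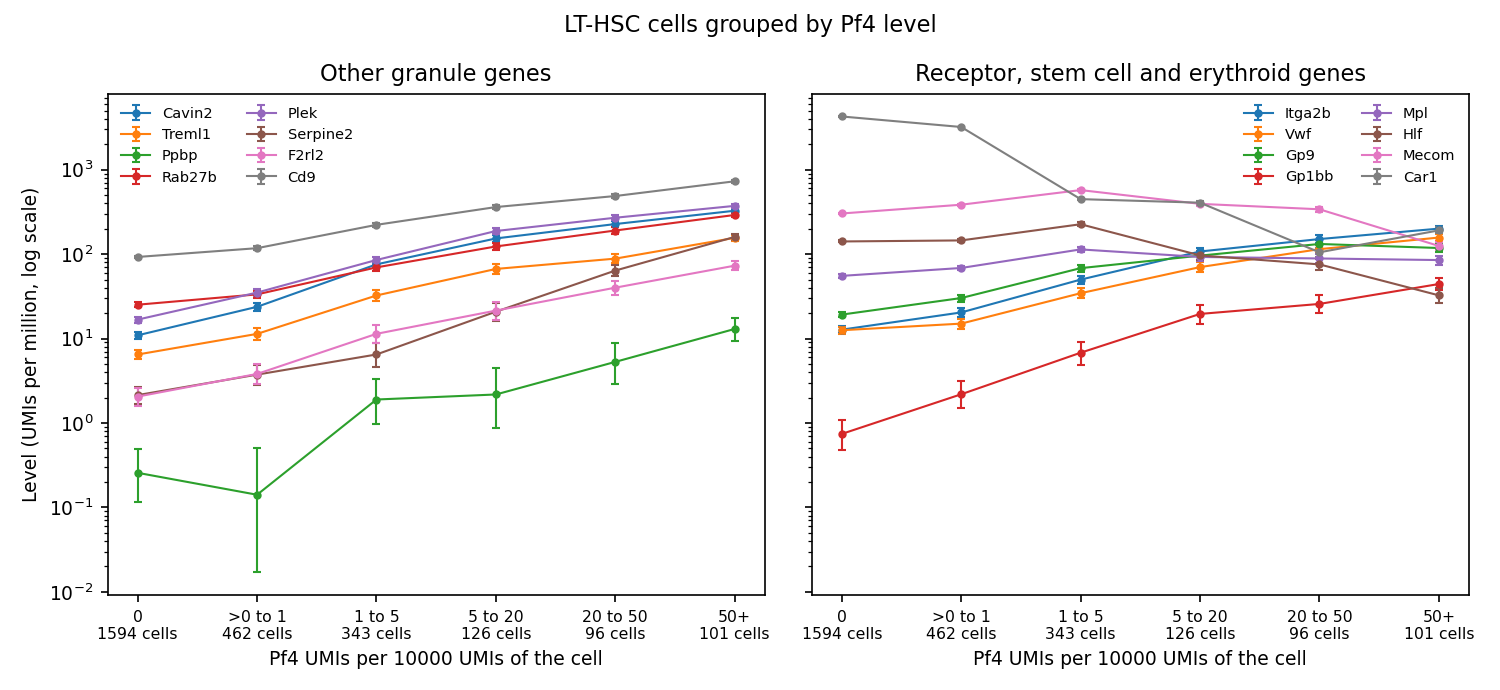
Levels in LT-HSC cells grouped by their Pf4 UMIs per 10000 (6 groups from left to right, cells per group under the axis), in CPM on a log axis with exact 95% Poisson intervals. All 8 granule genes drawn are highest in the group with the most Pf4, while Hlf peaks at 226 CPM in the third group and Car1 is lower in each of the 4 groups with the most Pf4 than in the 2 with the least.

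Co-detection was counted after thinning to 5000 UMIs, in pairs for which independent detection would give at least 5 cells. In LT-HSC, 23 of 28 such pairs were seen together in at least 1.5 times as many cells as independent detection gives. No share over pairs of other genes was computed. The members were also picked partly because they sit together in cells with much Pf4. The counts of pairs here and below are therefore descriptions, and nothing is read from them. Treml1 and Serpine2 were together in 45 cells, against 11.1 cells under independence (4.07-fold), and Cavin2 and F2rl2 in 53 cells against 15.1 (3.52-fold). Pf4 and Cavin2 were together in 273 cells against 111 (2.46-fold), so that 63.5% of cells with Cavin2 also had Pf4. The pairs with Cd9 lay between 1.34-fold and 1.71-fold, which included the 5 pairs below 1.5. Cd9 was seen in 1347 of the 2654 thinned cells, which caps its pairs well below those of rarer genes. The sizes are thus not compared between genes. Without the Pf4-high cells, 18 of 25 pairs were still at 1.5-fold or more. Within Hlf-high LT-HSC cells, defined below, 0 of 10 pairs were, but the 2 counts cover different sets of pairs. Serpine2 and F2rl2 were left in 3 and 4 of 431 thinned Hlf-high cells, so none of their pairs is among the 10. In the Pf4-high cells most members are detected so often that only 3 of 33 pairs could reach 1.5-fold, so no count is read there.

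**Figure D4:**
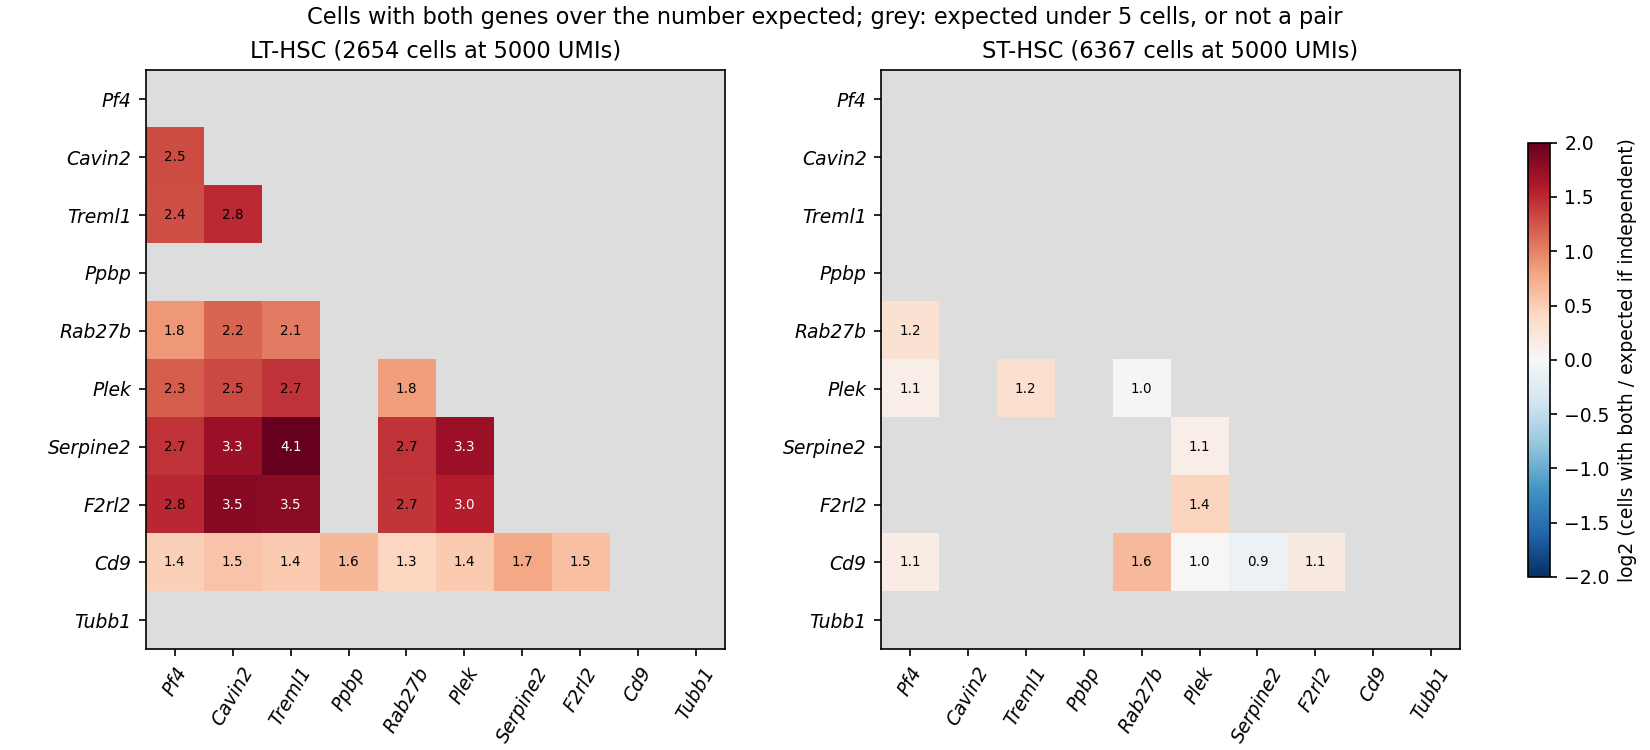
Cells with at least 1 UMI of both genes over the number that independent detection would give (number in each square, colour on a log2 scale), in LT-HSC and ST-HSC cells thinned to 5000 UMIs; grey squares had under 5 cells expected. In LT-HSC the highest square is Treml1 with Serpine2 at 4.07, and in ST-HSC it is Rab27b with Cd9 at 1.56.

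In ST-HSC the pairs that could be compared were seen together little more often than independence gives. Of 11 pairs with 5 or more cells expected, 1 reached 1.5-fold: Rab27b and Cd9, in 104 cells against 66.5 (1.56-fold). Pf4 and Plek were at 1.09-fold, Pf4 and Cd9 at 1.11-fold, and Plek and Cd9 at 0.990-fold. The other pairs had too few cells, since Cavin2 was left in 9 and Treml1 in 24 of 6367 thinned ST-HSC cells. No pair among Pf4, Cavin2, Treml1 and Ppbp was compared. From the 5758 cells with 0 Pf4 UMIs to the 48 with 5 to under 20 per 10000, Rab27b went from 10.1 to 39.3 CPM. Treml1 went from 0.607 to 12.4 CPM (6 UMIs), Ppbp from 0.188 to 14.5 (7 UMIs) and Cavin2 from 0.125 to 6.20 (3 UMIs). Cd9 went from 45.2 to 64.1 CPM and Plek from 119 to 112. Serpine2 and F2rl2 had 2 and 1 UMIs in the 48 cells. Cells with 4 or more of the 10 members made up 12.9% of LT-HSC (11.6 to 14.2) and 0.110% of ST-HSC (0.0442 to 0.226). In LT-HSC, 828 thinned cells had none of them, and 8 cells had 8, the most seen.

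The genes were next read in cells with much Car1, a carbonic anhydrase of early erythroid cells, and in cells with much Hlf. Car1-high cells had at least 50 Car1 UMIs per 10000, and Hlf-high cells at least 5 Hlf UMIs per 10000 and at least 3 in all. There were 459 Car1-high cells in LT-HSC against 42 in ST-HSC, and 444 Hlf-high cells in LT-HSC against 2786 in ST-HSC, with 0 cells in both classes. Both are ranges of a continuous level: in LT-HSC, 85 cells lay between 80% and 100% of the Car1 limit and 160 between 80% and 100% of the Hlf limit. The median Hlf in Car1-high cells and the median Car1 in Hlf-high cells were 0 UMIs in both libraries. Median depth was 39670 UMIs in Car1-high and 11252 in Hlf-high LT-HSC cells, and 38616 and 11175 in the same classes of ST-HSC.

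In LT-HSC the granule genes were lower in Car1-high cells. Cavin2 was at 3.10 CPM in Car1-high cells and 19.8 CPM in Hlf-high cells, a ratio of 0.157 (0.113 to 0.215). Rab27b was at 8.23 CPM in Car1-high and 42.2 CPM in Hlf-high cells (0.195). Plek was at 5.03 CPM in Car1-high and 21.8 CPM in Hlf-high cells (0.231), and Cd9 at 39.7 CPM in Car1-high and 143 CPM in Hlf-high cells (0.278). Treml1 was at 2.89 CPM in Car1-high and 7.27 CPM in Hlf-high cells (0.398, 0.263 to 0.606). Of 6 members compared, 5 were at least 2-fold lower in Car1-high cells, beside 33.6% of 10308 genes. Cavin2 and Treml1 passed the CPM minimum only through Hlf-high cells, where they are high, so that count is a description. The median log2 ratio was -1.98 over the 6 members and -0.47 over all genes compared.

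Pf4 was the sixth, at 31.7 CPM in Car1-high and 56.8 CPM in Hlf-high LT-HSC cells, a ratio of 0.558 (0.488 to 0.639). It turned on 1 cell: a Car1-high cell with 430 of the class's 624 Pf4 UMIs, which was Pf4-high as well. Without the 1 Pf4-high cell in each class, Pf4 was at 9.88 CPM in Car1-high and 52.8 CPM in Hlf-high cells, a ratio of 0.187 (0.156 to 0.225). Its log2 ratio of -0.84 was -1.59 with both class limits halved and -3.24 with them doubled. After thinning, 3.06% of Car1-high cells (1.68 to 5.09) and 19.7% of Hlf-high cells (16.1 to 23.8) had a Pf4 UMI. Serpine2 was at 1.73 CPM in Car1-high and 1.35 CPM in Hlf-high cells (34 and 8 UMIs), and the interval of its ratio, 0.580 to 3.19, held 1. F2rl2 was at 0.812 CPM in Car1-high and 1.86 CPM in Hlf-high cells (16 and 11 UMIs; interval 0.191 to 1.04). Ppbp had 0 UMIs in Car1-high and 7 in Hlf-high cells (ratio 0, interval up to 0.208), and Tubb1 had 2 UMIs in Car1-high and 0 in Hlf-high cells.

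**Figure D5:**
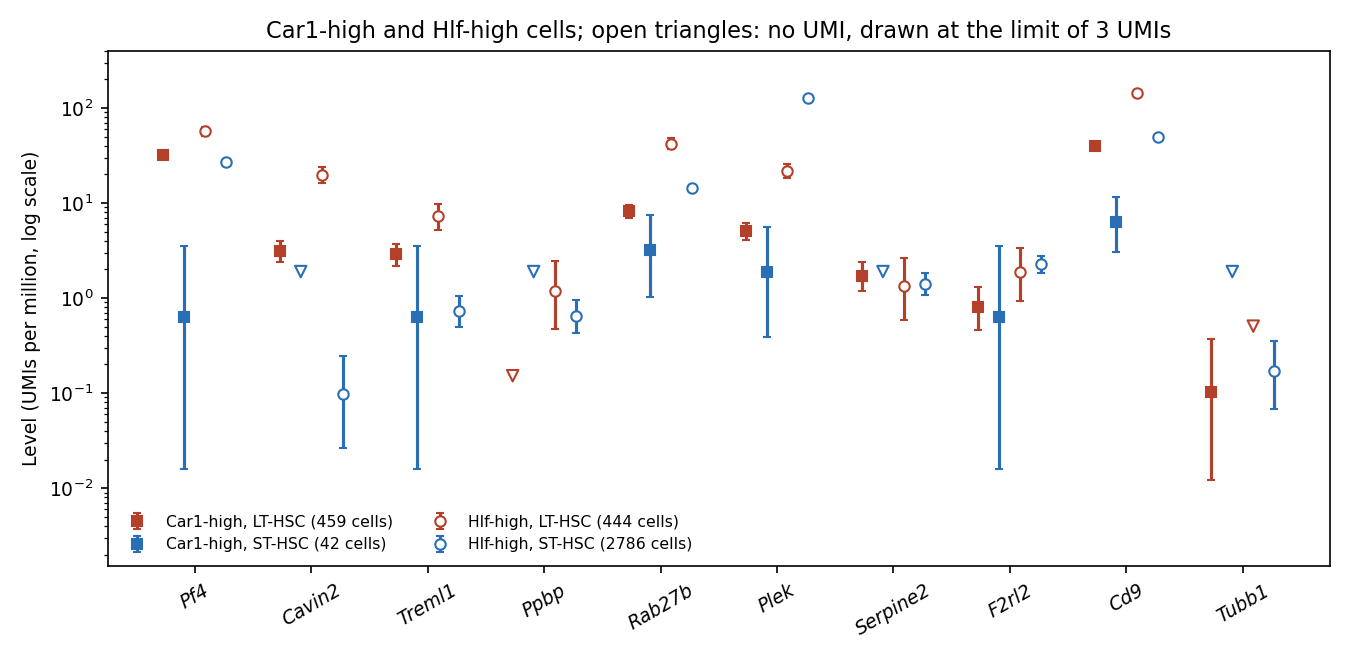
Level of each granule gene in Car1-high cells (squares) and Hlf-high cells (circles) of LT-HSC and ST-HSC, in CPM on a log axis with exact 95% Poisson intervals; triangles mark 0 UMIs, drawn at the level of 3 UMIs. Plek in Hlf-high cells is the clearest case of a higher level in ST-HSC (128 CPM, beside 21.8 CPM in LT-HSC), and Cavin2 in the same class of the opposite (19.8 CPM in LT-HSC, beside 0.0971 CPM in ST-HSC).

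In ST-HSC the 42 Car1-high cells held few UMIs of any member. Pf4 had 1 UMI in Car1-high cells and was at 27.0 CPM in Hlf-high cells, a ratio of 0.0235 (0.000595 to 0.131). Plek had 3 UMIs, 1.90 CPM, in Car1-high cells and was at 128 CPM in Hlf-high cells (ratio 0.0149, 0.00307 to 0.0436). Rab27b was at 3.17 CPM in Car1-high and 14.4 CPM in Hlf-high cells, and Cd9 at 6.34 CPM in Car1-high and 49.2 CPM in Hlf-high cells. All 4 members compared were at least 2-fold lower in Car1-high cells, beside 30.6% of 10199 genes. Pf4, Plek and Rab27b passed the minimum only through Hlf-high cells, and nothing is read from their number.

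Along Car1, levels of Cavin2 and Cd9 in LT-HSC fell in steps. Cavin2 was at 98.8 CPM in the 1619 cells with under 1 Car1 UMI per 10000, and at 58.8, 35.7, 10.3 and 3.10 CPM in the 4 groups of increasing Car1. Cd9 was at 283.6, 208, 146, 98.9 and 39.7 CPM over the same 5 groups. The first of these groups is not the Hlf-high class, where Cavin2 was at 19.8 CPM and Cd9 at 143 CPM. It held 41666 of the library's 44868 Pf4 UMIs. The 1819 LT-HSC cells that were neither Car1-high nor Hlf-high included 195 of the Pf4-high cells. In them Cavin2 was at 81.2 CPM and Cd9 at 243 CPM, so Hlf-high cells are not the upper end for these genes. Along Hlf, Pf4 summed over all kept cells ran in opposite directions in the libraries. In LT-HSC it was at 878.5 CPM in cells with under 1 Hlf UMI per 10000 and at 572, 264, 58.2 and 48.8 CPM in the 4 groups of increasing Hlf. In ST-HSC it was at 9.83 CPM in cells with under 1 Hlf UMI per 10000 and at 10.3, 9.96, 20.2 and 40.1 CPM with increasing Hlf. Cd9 in ST-HSC stayed between 39.1 and 50.2 CPM over those groups. The 197 Pf4-high LT-HSC cells held 88.0% of that library's Pf4 UMIs and had a median Hlf of 0. ST-HSC had 1 such cell. Their part in the fall of Pf4 along Hlf in LT-HSC was not tested. Grouped by Pf4 instead, Hlf was at 141, 145, 226 and 96.6 CPM in the 4 lowest groups of LT-HSC. In those of ST-HSC it was at 416, 666, 856 and 1031 CPM.

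Hlf-high cells, of close median depth in both libraries, also differed in these genes between LT-HSC and ST-HSC. The class was not alike in other RNA. Its cell cycle markers summed to 210 CPM in LT-HSC against 812 CPM in ST-HSC, and its lymphoid markers to 40.4 against 634 CPM. Its stem cell markers summed to 3821 CPM in LT-HSC against 3964 CPM in ST-HSC. The part of such differences in the ratios below was not tested. Cavin2 had 117 UMIs in 444 LT-HSC cells and 4 in 2786 ST-HSC cells, or 19.8 and 0.0971 CPM, 204-fold higher in LT-HSC (77.5 to 760.1). Rab27b was at 42.2 CPM in LT-HSC against 14.4 CPM in ST-HSC, 2.93-fold higher (2.51 to 3.40), and Cd9 at 143 CPM in LT-HSC against 49.2 CPM in ST-HSC, 2.905-fold higher (2.68 to 3.15). Plek was at 21.8 CPM in LT-HSC against 128 CPM in ST-HSC, a ratio of 0.171 (0.142 to 0.204). Treml1 was at 7.27 CPM in LT-HSC against 0.728 CPM in ST-HSC, 9.98-fold higher (6.12 to 16.5), with a mean CPM under 5. Serpine2 (0.961, 0.396 to 2.02) and F2rl2 (0.815, 0.393 to 1.53) had intervals that held 1. Of 5 members compared, 4 were at least 2-fold higher in LT-HSC, beside 5.02% of 10767 genes, and 1, Plek, was at least 2-fold lower, beside 6.97%. Cavin2 passed the CPM minimum only through LT-HSC, where it is high, so the count is not support.

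Pf4 in Hlf-high cells was at 56.8 CPM in LT-HSC against 27.0 CPM in ST-HSC, 2.11-fold higher (1.86 to 2.38), where over all kept cells it was 42.8-fold higher. This value followed the limit set for Hlf: the log2 ratio was 1.07 at 5 Hlf UMIs per 10000, 3.08 with both class limits halved and 0.29 with them doubled. It was 0.97 without the 1 Pf4-high cell. Per 100 Pf4 UMIs, Hlf-high cells held 34.8 Cavin2 UMIs in LT-HSC (28.0 to 43.1) and 0.360 in ST-HSC (0.0979 to 0.924). In Car1-high cells, Pf4 had 624 UMIs in LT-HSC against 1 in ST-HSC, a ratio of 50.01 (8.94 to 1979, log2 5.64). Without the single Pf4-high cell named above, the log2 ratio was 3.96. Cd9 was 6.27-fold higher there (3.39 to 13.1) and Rab27b 2.60-fold (1.09 to 8.11), so that 3 of 3 members compared were at least 2-fold higher in LT-HSC, beside 3.89% of 8843 genes. Pf4 and Rab27b passed the minimum only through LT-HSC, so nothing is read from that count.

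RNA free in the droplets can give UMIs in cells that do not express a gene, so shares were set beside cells chosen by genes of other lineages. In ST-HSC, after thinning, Pf4 was seen in 10.9% of Hlf-high cells (9.73 to 12.1), in 2.53% of 1187 cells with at least 2 Dntt UMIs per 10000 (Dntt-positive; 1.71 to 3.59), and in 2 of 85 cells with at least 50 Mpo UMIs per 10000 (Mpo-high). Dntt is a gene of early lymphoid cells and Mpo of early neutrophil and monocyte cells; their median depths were 14528 and 29033 UMIs, and that of Hlf-high cells 11175. The Dntt-positive cells are not free of stem cell RNA: their stem cell markers summed to 2180 CPM and their lymphoid markers to 1935.0 CPM, and 350 of 1217 were Hlf-high too. In the 867 that were not Hlf-high, Pf4 was at 2.62 CPM (1.86 to 3.60), against 29.7 CPM (27.9 to 31.6) in the 2436 Hlf-high cells that were not Dntt-positive. Cavin2 had 0 UMIs in the 1217 Dntt-positive cells, which allows up to 0.147 CPM, and 4 UMIs in Hlf-high ST-HSC cells, 0.0971 CPM (0.0264 to 0.248), so a difference was not detectable at this depth. Rab27b was seen in 5.61% of thinned Hlf-high and 1.35% of Dntt-positive cells. In LT-HSC, the 216 barcodes left out by the filters held Pf4 at 59.8 CPM (29 UMIs, 40.1 to 85.9). Rab27b was there at 49.5 CPM (24 UMIs, 31.7 to 73.7). Both were close to the Hlf-high LT-HSC cells at 56.8 and 42.2 CPM. Plek was at 33.0 CPM (16 UMIs) in these barcodes and 21.8 CPM in the Hlf-high cells. Cd9 was lower in these barcodes, at 41.3 CPM (20 UMIs, 25.2 to 63.7) beside 143 CPM. Cavin2 and Treml1 had 5 and 1 UMIs there (10.3 and 2.06 CPM, beside 19.8 and 7.27 CPM). Serpine2 and F2rl2 had 4 and 3 UMIs there. The part of free RNA in the levels of Hlf-high LT-HSC cells was not tested; Pf4 in Car1-high LT-HSC cells, without 1 cell, was at 9.88 CPM.

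In ST-HSC, Plek and Serpine2 were also held by cells outside the Hlf-high class. Plek was at 136 CPM in Dntt-positive cells and 132 CPM in the 867 of them that were not Hlf-high. It was at 128 CPM in Hlf-high cells, 22.3 CPM in Mpo-high cells and 1.90 CPM in Car1-high cells. Serpine2 was at 42.9 CPM (35.1 to 51.9) in the 85 Mpo-high cells, which held 33.3% of its UMIs in ST-HSC, and at 1.41 CPM in Hlf-high cells. Mpo-high cells held 0 UMIs of Cavin2, Treml1 and F2rl2.

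Most members stayed higher in LT-HSC when the Pf4-high cells of both libraries were left out, a step added after the data were seen. The log2 ratio of LT-HSC over ST-HSC was then 2.59 for Pf4, 7.07 for Cavin2, 4.18 for Treml1, 1.76 for Rab27b, and 1.47 for Cd9. F2rl2, at 1.37, and Serpine2, at 0.52, then had a mean CPM under 5. Plek was at -1.66, at least 2-fold lower in LT-HSC. Of 6 members then compared, 5 were at least 2-fold higher and 1 lower, beside 299 higher and 1121 lower of 10409 genes. Cavin2 and Treml1, then at 0.215 and 0.761 CPM in ST-HSC, passed the minimum only through LT-HSC. The contrast of the libraries helped to choose the genes, so nothing is read from that count.

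Other genes of the platelet programme, read from 8 lists of related genes, were at least 2-fold apart in both directions. Over all 10412 genes, 2.88% were at least 2-fold higher in LT-HSC and 10.8% lower, and nothing is read from a list whose share is near these. Of 8 genes of alpha granule cargo at this level, 2 were at least 2-fold higher in LT-HSC and 1 lower: Vwf, the von Willebrand factor, was at 29.5 CPM in LT-HSC against 3.72 CPM in ST-HSC (7.93-fold), Mmrn1, multimerin, was 2.95-fold higher, and F13a1, the A chain of coagulation factor XIII, had 6 UMIs in LT-HSC against 1743 in ST-HSC. Of 20 genes of granule biogenesis and release, 1 was higher (Stx11, a syntaxin, 2.38-fold) and 2 lower (Lyst, a regulator of lysosome-related organelles, at a ratio of 0.322, and Nbeal2, needed for alpha granules, at 0.350). Of 15 surface receptor genes, 8 were higher in LT-HSC and 1 lower, among them Gp5 (9.38-fold), Gp9 (5.78-fold) and the ADP receptor P2ry1 (5.58-fold). The median log2 ratio was 1.06 for the receptors, 0.13 for the cargo and -0.23 for biogenesis and release, beside -0.12 for all genes compared.

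Of 14 genes of the cytoskeleton and of signalling, 2 were higher and 3 lower, with Tuba8 at 6.44-fold, Plcg2 at a ratio of 0.2502 and Syk at 0.430. Both genes compared of the caveola coat were higher: Cavin1 was at 19.0 CPM in LT-HSC against 4.42 CPM in ST-HSC (4.30-fold), and Cavin3 at 29.5 CPM in LT-HSC against 7.83 CPM in ST-HSC (3.77-fold). Of 13 transcription factors, 4 were higher and 0 lower, among them Gata1 (4.17-fold), Gfi1b (2.72-fold) and Gata2 (2.35-fold). Gata1 was not highest in Pf4-high cells, with 56.0 CPM there and 72.1 CPM in the LT-HSC library. Of the CXC chemokine genes, Cxcl2 alone had a mean CPM of at least 5, with a ratio of 1.41. Of the serpin and thrombin list, Serpinb1a was at 0.401 and Procr at 1.004.

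Across 2722 LT-HSC cells, the genes most like the mean of the granule genes included Itga2b (Pearson r 0.67), Rap1b (0.64), Tmsb4x (0.61), Pdcd4 (0.59), Lims1 (0.56), Nrgn (0.54), Mef2c (0.52), Unc119 (0.50) and Sla (0.49), out of 6636 genes compared. The cells share 1 library, and r with the log of total UMIs was 0.083. Rap1b, a GTPase of integrin activation, was at 1060.5 CPM in Pf4-high cells and 286 CPM in the LT-HSC library. Car1 stood at -0.35 and Hlf at -0.18. In ST-HSC no gene passed 0.21, the value of Apoe over 6648 cells, which is too weak to read as a pattern.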

How the data were processed

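The authors deposited 1 matrix of raw UMI counts per library, with gene and barcode lists. Per the submitters' processing notes they were made with Cell Ranger 7.2 on mm10, while version 7.1.0 stands in the matrices, per the file headers. Per the labels the kit was a 10x 3' one. Barcodes with at least 1000 genes and under 10% mitochondrial UMIs were kept, and no doublets were removed: Scrublet (scanpy 1.11.5) marked 6 LT-HSC cells, 0.220%, and 0 ST-HSC cells, so its calls were not used.

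Counts were summed over cells per library or class and scaled to CPM by the total. CPM carry exact Poisson, ratios exact conditional binomial and shares exact Clopper-Pearson 95% intervals (scipy 1.17.1), for counting error only; a count of 0 allows 3 counts. Ratios are LT-HSC over ST-HSC, or Car1-high over Hlf-high. Genes with a mean CPM of at least 5 were compared by a 2-fold size, with no p-value. Cells were thinned to 5000 UMIs to compare shares. The intervals were tried on simulated library totals drawn from the same Poisson model that they assume. That trial left out the concentration of UMIs in few cells, so it checks the code and not the fit of the intervals to these data. Members and gene lists were chosen with earlier results of these data known. Besides members, up to 3 genes per list with the largest absolute log2 ratio and 10 correlates per library at a mean CPM of at least 20 were named, passing over symbols of unnamed gene models. Some genes under these rules are not reported here. Gene coordinates came from GENCODE for mm10 and promoter sequences from RefSeq. Alternatives covered scaling, filters, doublets, class limits and thinning.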

Additional observations from a re-analysis of the deposited data

How the results depend on the processing

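The count of members at least 2-fold higher in LT-HSC stayed at 7 with edgeR 4.0.16 TMM scaling, median-of-ratios scaling, every deposited barcode, stricter cell filters, 39 LT-HSC and 323 ST-HSC cells with high doublet scores left out, or all cells weighted equally. Equal weights took Plek to a log2 ratio of -1.01, at least 2-fold lower. Over all genes, the median log2 ratio was -0.12 with totals, 0.0096 with TMM and 0.025 with median of ratios. Genes at least 2-fold higher and lower numbered 300 and 1126 (21.0% higher) with totals, 421 and 910 (31.6%) with TMM, 438 and 886 (33.1%) with median of ratios, and 2579 and 5946 with no expression filter, where genes of few counts enter too. In ST-HSC, 4 pairs of members reached 1.5-fold co-detection without thinning and 2 at 10000 UMIs, against 1; more pairs then had 5 cells expected (23 and 17, against 11). Halved or doubled class limits and leaving out doublets kept the other counts within 1.5 times. Doubled limits left 0 Car1-high cells in ST-HSC, so 2 comparisons had no value. Leaving out the Pf4-high cells was added after seeing the data. Of the single-gene values under these alternatives, 132 stayed within their counting interval and 41 moved beyond it, and no value at least 2-fold apart turned sign; where no alternative is named as the cause, the cause was not tested. No paired analysis was possible because there is 1 library per group, and for the same reason no replicate could be left out. Depth limits Ppbp, Tubb1 and all members in the 42 Car1-high cells of ST-HSC.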
